A study of Mus musculus with 4 samples.

Results

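The interferon regulatory factor (IRF) family was followed here through its 8 members Irf1, Irf2, Irf3, Irf4, Irf5, Irf7, Irf8 and Irf9, taken by symbol from a table of read counts for 19044 genes. All 8 members passed the level minimum of a mean of 5 CPM (counts scaled to a common library size), as did 9680 genes in all. The libraries were made from regulatory T (Treg) cells, suppressive CD4 T cells defined by Foxp3, from mouse spleen and peripheral lymph nodes. There were 4 libraries, 1 per group: aTreg and rTreg cells of Ripk1 fl/fl Foxp3-YFP-Cre mice (labelled knockout), and aTreg and rTreg cells of Foxp3-YFP-Cre mice (labelled WT). Both genotypes carry the Foxp3-driven Cre with its yellow fluorescent protein, no mouse was treated, and Cre removes the floxed part of Ripk1 in cells that express Foxp3. The labels do not spell out a and r, which in this field stand for activated and resting. The sources used here give neither the age and number of the mice nor the sort gate or any pooling of animals.

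IRF proteins share an amino-terminal DNA-binding domain that reads GAAA repeats, and they differ in what switches them on. IRF1, IRF2, IRF8 and IRF9 belong to the interferon response itself: interferon-gamma induces IRF1 and IRF8, IRF2 competes with IRF1 for the same sites, and IRF9 is the DNA-binding subunit of ISGF3, the complex that forms in response to type I interferon. IRF3, IRF5 and IRF7 are activated by phosphorylation downstream of nucleic acid sensors and Toll-like receptors. IRF4 is induced by the T cell receptor, works with BATF and JUN proteins in T cells, and is needed for the effector program of Treg cells.

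Depth ran from 17588754 to 20868319 counts per library. Ripk1, the floxed gene, had 1516 and 1492 counts in aTreg and rTreg labelled knockout and 1596 and 1755 counts in WT aTreg and rTreg, and it did not pass edgeR's test for genotype (adjusted p = 0.657). A count over the whole gene checks the loss of a few exons only weakly, so the libraries are called KO-labelled throughout, also wherever a direction is drawn from them. Xist, the RNA of the inactive X chromosome, had 4 and 5 counts in KO-labelled aTreg and rTreg and 6955 and 6271 counts in WT aTreg and rTreg. The Y-linked Ddx3y had 2106 and 2218 counts in the KO-labelled pair and 2007 and 2542 in the WT pair. Of the other Y-linked genes, Eif2s3y and Kdm5d were called higher in the KO-labelled libraries (fitted log2 change 0.50 and 0.42), and Uty was not called. Each WT library thus held Xist together with Y-linked reads. Genotype and the sexes of the mice therefore cannot be told apart in any comparison of genotypes below. Within a genotype the aTreg and rTreg libraries are close in Xist, which was not called for state. Ddx3y and Eif2s3y were called lower in aTreg (fitted log2 change -0.24 and -0.28), where the test called 13.5% of all tested genes. DESeq2 called neither (adjusted p = 0.372 and 0.361). Kdm5d and Uty were not called for state. Whether sex bears on the comparisons of states was not tested. For genotype, 2 of 8 Treg markers passed the test upward and 1 downward, against 47.3% of all tested genes called, and their summed level was 4056 and 3981 CPM in KO-labelled aTreg and rTreg and 4052 and 3678 CPM in WT aTreg and rTreg.

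The promoters of Irf1, Irf8 and Irf2 are printed. They were chosen because these 3 members were called higher in the KO-labelled libraries (below) and hold a gamma-activated site upstream. This element mediates responses to interferon-gamma, and no other member had a match to it. Irf9 was also called higher and had no such match, and the call of Irf2 was lost in other settings (below). Whether the sites bear on the levels was not tested. RefSeq lists 2 starts each for Irf1 and Irf8, and the upstream one is shown, since the second promoter of each holds no match to the motifs below. The 250 bases before the start are given 5′ to 3′ on the gene's strand in the build GRCm38.p6, at chr11:53769764-53770013 for Irf1, chr8:120736108-120736357 for Irf8 and chr8:46739495-46739744 for Irf2, all on the plus strand. Capitals mark matches to any of 3 motifs.
Irf1: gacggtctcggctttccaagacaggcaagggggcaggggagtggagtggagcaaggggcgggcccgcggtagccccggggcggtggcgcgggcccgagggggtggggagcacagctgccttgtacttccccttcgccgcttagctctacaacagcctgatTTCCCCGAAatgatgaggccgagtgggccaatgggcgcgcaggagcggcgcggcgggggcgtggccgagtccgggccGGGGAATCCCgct
Irf8: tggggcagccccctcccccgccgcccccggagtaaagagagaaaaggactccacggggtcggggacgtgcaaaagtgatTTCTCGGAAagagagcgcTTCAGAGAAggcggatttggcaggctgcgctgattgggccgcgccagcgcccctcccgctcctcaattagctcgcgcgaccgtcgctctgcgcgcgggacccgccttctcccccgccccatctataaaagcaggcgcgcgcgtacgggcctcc
Irf2: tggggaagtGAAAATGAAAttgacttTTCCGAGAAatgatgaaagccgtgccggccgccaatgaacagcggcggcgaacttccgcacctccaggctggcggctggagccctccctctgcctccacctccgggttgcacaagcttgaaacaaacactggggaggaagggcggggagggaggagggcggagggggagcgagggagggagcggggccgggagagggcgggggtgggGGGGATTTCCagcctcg
The gamma-activated site was searched as TTCNNNGAA, the interferon-stimulated response element as GAAA, any 2 bases and GAAA, and the NF-kappaB site by its 10-letter consensus, all on both strands. Counting -1 as the base before the start, the gamma-activated site of Irf1 lies at -90 to -82 and an NF-kappaB match at -13 to -4. Irf8 has 2 gamma-activated matches, at -171 to -163 and at -153 to -145. Irf2 holds an interferon-stimulated response element at -241 to -232, a gamma-activated match at -224 to -216 and an NF-kappaB match at -17 to -8. No 2 of these matches overlap. Of 11 RefSeq promoters of the 8 members, 3 held a gamma-activated match, against 7.02% of all 32851 promoters of this length. For the interferon-stimulated response element it was 1 of 11 against 2.98%, and for the NF-kappaB site 2 of 11 against 3.90%. A match of letters is a description of the sequence and not a binding site.

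Per length, Irf1 was the most abundant member in all 4 libraries. In TPM (counts divided by the summed length of a gene's annotated exons and scaled to a common total), it was at 489 in KO-labelled aTreg, 653 in KO-labelled rTreg, 346 in WT aTreg and 388 in WT rTreg. No other member exceeded 139 TPM in a library. Irf9 (110 to 139 TPM), Irf7 (108 to 136), Irf3 (92 to 120) and Irf4 (86.4 to 111) formed the next group, and their ranges over the libraries overlap. Irf2 stayed below them at 47.5 to 61.9 TPM. Irf5 (13.6 to 28.0 TPM) and Irf8 (10.5 to 33.0) were lowest, with overlapping ranges. By this length Irf8 lay above Irf5 in both KO-labelled libraries and below it in both WT libraries. That order depends on the length used. With the length of the longest transcript in place of all exons, Irf8 lay above Irf5 in WT rTreg too. There it had 428 counts over 3469 bases, against 229 over 2241 for Irf5. By its mean over the libraries Irf8 then ranked above Irf5, and Irf3 moved to the place after Irf1. The summed level of the 8 members was 1027 TPM in KO-labelled aTreg, 1217 in KO-labelled rTreg, 896 in WT aTreg and 926 in WT rTreg. Irf1 made up 47.6% and 53.7% of it in KO-labelled aTreg and rTreg, against 38.7% and 42.0% in WT aTreg and rTreg.

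**Figure D1:**
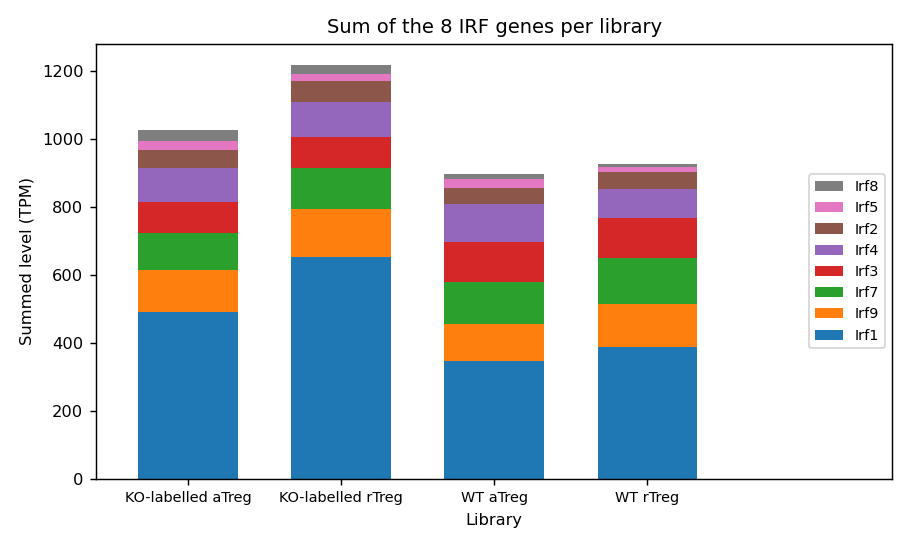
Summed level of the 8 IRF genes in TPM (vertical axis) for each of the 4 libraries, stacked by gene. The KO-labelled columns reach 1027 and 1217 TPM and the WT columns 896 and 926, and the Irf1 segment at the base is the one that differs most in height.

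Relative to WT, the KO-labelled libraries had more mRNA of Irf8, Irf1, Irf2 and Irf9 and less of Irf3 in both states. The difference was more than 2-fold for Irf8 and less than 2-fold for the others. The calls of Irf2 and Irf9 (fitted log2 change 0.27 and 0.19) were lost with DESeq2 and with genotype as the single term (below). Irf5 was also higher and Irf7 lower in both states (0.33 and -0.15). Neither passed the test for genotype, nor did Irf4. In these bulk libraries a larger share of cells that express a gene and more RNA per cell cannot be told apart. The test was edgeR's quasi-likelihood test with state and genotype as additive terms at an adjusted p of 0.05, and it called 4 members higher and 1 lower. Among all tested genes it called 24.5% higher and 22.9% lower, 47.3% in all, so 5 of 8 is near the background of this test and the sizes of the changes carry more than the count. Each group has 1 library, so the error of the test is the spread between pairs of states and need not hold the spread between mice.

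**Figure D2:**
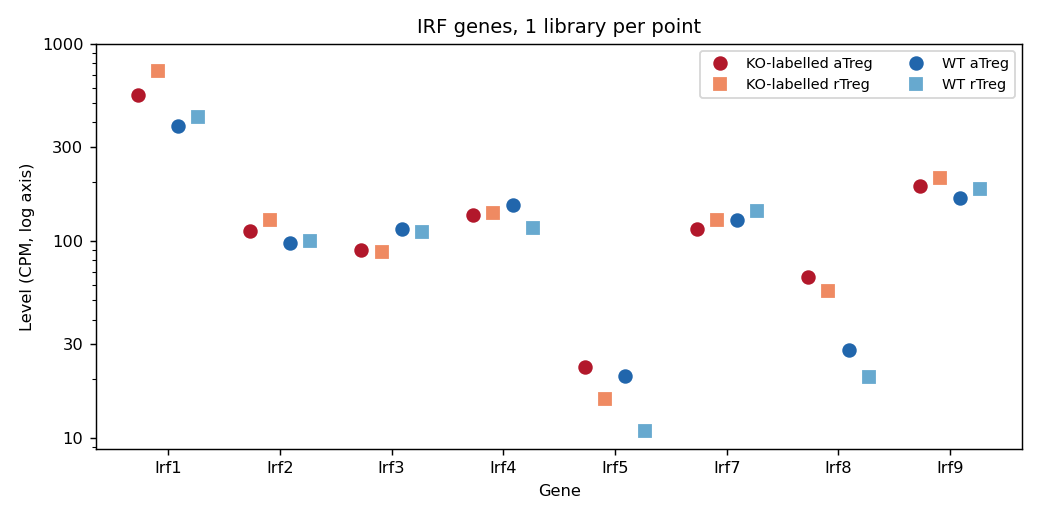
Level of each IRF gene in CPM (log axis), with 1 point per library. For Irf8, Irf1, Irf2 and Irf9 each KO-labelled point lies above the WT point of the same state, for Irf3 both KO-labelled points lie below both WT points, and Irf4 crosses over.

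Irf8 (ENSMUSG00000041515, GRCm38 chromosome 8, 120736358 to 120756694, plus strand) encodes a factor known for myeloid and dendritic cell development and for germinal center B cells. It had 1235 counts in KO-labelled aTreg and 980 in KO-labelled rTreg, against 580 in WT aTreg and 428 in WT rTreg, or 65.8 and 55.6 CPM against 28.2 and 20.4 CPM. Both KO-labelled libraries lie above both WT libraries. The log2 ratio of KO-labelled over WT was 1.22 in aTreg (95% counting interval 1.08 to 1.37) and 1.44 in rTreg (1.28 to 1.62). Only 3.04% of tested genes had a higher ratio in aTreg and 1.22% in rTreg. Over both states Irf8 rose by 1.33 log2 units, 2.52-fold (SE 0.0961, edgeR adjusted p = 2.84e-07). It was the single member at least 2-fold higher in either contrast, where 3.95% of tested genes were in aTreg and 3.41% in rTreg. At least 2-fold lower were 2.17% and 1.34%, which makes 6.12% in aTreg and 4.75% in rTreg in either direction. The exons of Irf8 overlap no other annotated gene.

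Because Irf8 and Irf5 are abundant in B cells and myeloid cells, the markers of those cells are given beside them. Of the B cell markers, Pax5 had 10 and 3 counts in KO-labelled aTreg and rTreg and 7 and 1 in WT aTreg and rTreg, and Ms4a1 had 0 and 3 against 4 and 2. The summed level of 8 B cell markers was 22.3 and 17.6 CPM in KO-labelled aTreg and rTreg and 24.5 and 14.1 CPM in WT aTreg and rTreg, most of it Cd79b. The 5 conventional dendritic cell markers with a row in the table summed to 5.38 and 3.12 CPM in the KO-labelled pair and 3.06 and 0.953 CPM in the WT pair. Among them Itgax had 25 and 15 counts in KO-labelled aTreg and rTreg against 0 and 2 in WT, and Flt3 had 2 and 0 against 1 and 0. The 7 macrophage and monocyte markers summed to 14.4 and 16.6 CPM in the KO-labelled pair and 14.9 and 14.5 CPM in the WT pair, with Csf1r at 3 and 6 counts against 9 and 9. Spi1, whose product PU.1 is the usual partner of IRF8 in those lineages, had 9 and 3 counts in KO-labelled aTreg and rTreg and 5 and 2 in WT. Levels differed widely within these lists: Cd79b had 242 and 200 counts in KO-labelled aTreg and rTreg and 290 and 184 in WT, and Cd68 had 229 and 254 against 258 and 265. Xcr1 had 35 and 17 counts in KO-labelled aTreg and rTreg and 29 and 1 in WT, and Zbtb46 had 39 and 23 against 32 and 17. Of the plasmacytoid dendritic cell markers, 3 of 5 had a row: Klk1 had 0 and 0 counts in the KO-labelled pair and 3 and 8 in the WT pair, Cox6a2 had at most 1, and Pacsin1 made up nearly all of a sum of 55.6 and 68.2 CPM in KO-labelled aTreg and rTreg and 117 and 116 CPM in WT aTreg and rTreg. Of 2 measured NK cell markers, Eomes had 112 and 123 counts in KO-labelled aTreg and rTreg and 12 and 33 in WT, and Klrb1c had 26 and 5 against 48 and 13. The 4 neutrophil markers summed to 0.959 and 2.61 CPM in KO-labelled aTreg and rTreg and 0.291 and 0.0477 CPM in WT aTreg and rTreg, with S100a9 at 5 and 25 counts against 2 and 0. The 4 plasma cell markers summed to 1.12 and 1.87 CPM in the KO-labelled pair and 0.777 and 0.429 CPM in the WT pair, with Jchain at 16 and 27 counts against 5 and 3. The 2 NK cell markers summed to 7.35 and 7.27 CPM in KO-labelled aTreg and rTreg and 2.91 and 2.19 CPM in WT aTreg and rTreg, and the 2 CD8 T cell markers to 9.65 and 12.9 CPM against 7.82 and 10.5 CPM. Conventional dendritic cell, NK cell, CD8 T cell, neutrophil and plasma cell sums were thus higher in the KO-labelled library of each state. In the NK cell sum this came from Eomes, since Klrb1c was lower. The plasmacytoid dendritic cell sum was lower in the KO-labelled library of each state. B cell and macrophage sums were lower in KO-labelled aTreg and higher in KO-labelled rTreg than in WT. The part of such cells in the Irf8 difference was not tested.

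Irf1 (ENSMUSG00000018899, chromosome 11, 53770014 to 53778374, plus strand) activates genes of antigen presentation and the guanylate-binding proteins. It had 10322 counts in KO-labelled aTreg and 12772 in KO-labelled rTreg, against 7929 in WT aTreg and 8919 in WT rTreg, or 550 and 725 CPM against 385 and 425 CPM. The lower KO-labelled library lies above the higher WT library. The log2 ratio was 0.51 in aTreg (0.47 to 0.56) and 0.77 in rTreg (0.73 to 0.81), and Irf1 rose by 0.64 over both states (SE 0.0764, edgeR adjusted p = 1.86e-05). A higher ratio was seen for 11.9% of tested genes in aTreg and 5.26% in rTreg.

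Irf2 (ENSMUSG00000031627, chromosome 8, 46739732 to 46847458, plus strand) encodes the competitor of IRF1. It had 112 and 128 CPM in KO-labelled aTreg and rTreg, against 98.2 and 99.9 CPM in WT aTreg and rTreg, a small shift with no overlap of genotypes. It rose by 0.27 on the log2 scale (SE 0.0689, adjusted p = 0.00541 by edgeR). Per length, the ratio of Irf1 to Irf2 within a library was 9.13 in KO-labelled aTreg (8.71 to 9.57) and 10.5 in KO-labelled rTreg (10.1 to 11.04). It was 7.29 in WT aTreg (6.94 to 7.66) and 7.91 in WT rTreg (7.54 to 8.30), so the counting intervals of the genotypes do not overlap. This ratio does not depend on library scaling.

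Irf9 (ENSMUSG00000002325, chromosome 14, 55603571 to 55610030, plus strand) had 190 and 209 CPM in KO-labelled aTreg and rTreg and 165 and 185 CPM in WT aTreg and rTreg. Within each state the KO-labelled library is higher, although KO-labelled aTreg and WT rTreg differ little. It rose by 0.19 on the log2 scale (SE 0.0652, adjusted p = 0.0265 by edgeR). Its exons share 2.28% of their bases with Rnf31 on the same strand, and opposite-strand overlaps take 3.40% of the exon bases of Irf1 (Gm17334) and 1.19% of those of Irf7 (Phrf1), so a part of these counts is uncertain. The calls of Irf2 and Irf9 were lost with DESeq2 on the same terms (adjusted p = 0.0977 and 0.200) and with genotype as the single term (0.106 and 0.226). Irf9 also lost its call under upper-quartile scaling, at a log2 change of 0.15. The authors' deposited table, which compares genotypes, gives adjusted p-values of 3.69e-08 for Irf8, 0.00109 for Irf1 and 0.0577 for Irf3, and of 0.181 or more for the other members.

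**Figure D3:**
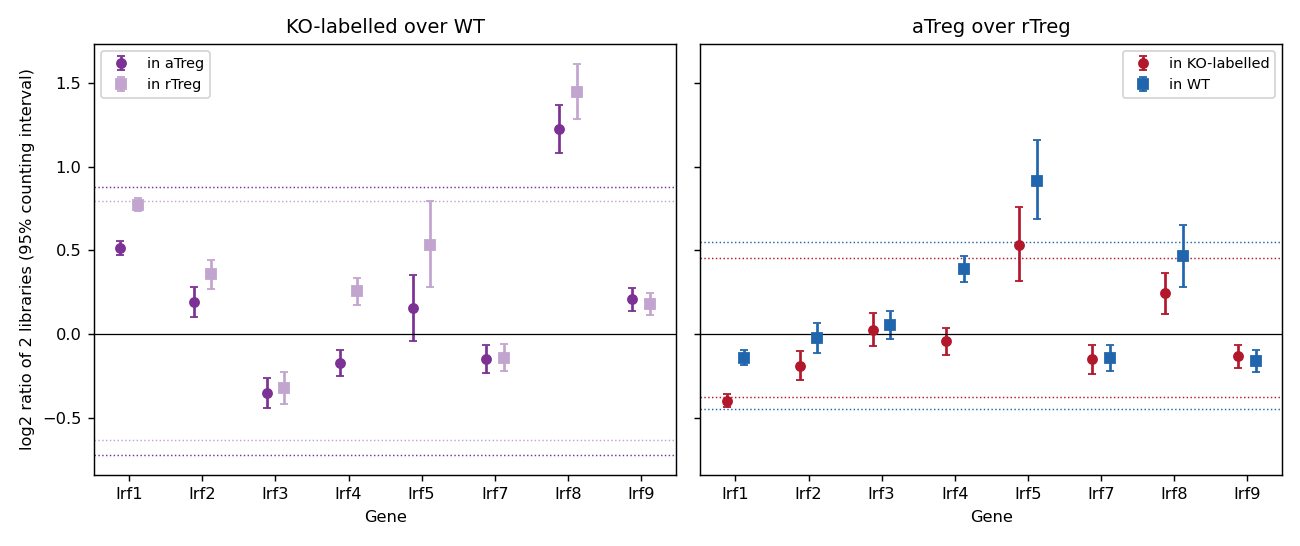
Log2 ratio of 2 libraries for each IRF gene with 95% counting intervals, KO-labelled over WT in each state (left) and aTreg over rTreg in each genotype (right). Dotted lines mark the 5th and 95th percentiles of all tested genes in the contrast of the same color; Irf8 lies above them on the left in both states, and Irf5 above them on the right in both genotypes.

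Irf3 (ENSMUSG00000003184, chromosome 7, 44997648 to 45002848, plus strand), the constitutive factor that TBK1 phosphorylates to start type I interferon transcription, went the other way. It had 90.1 and 88.5 CPM in KO-labelled aTreg and rTreg, against 115 and 111 CPM in WT aTreg and rTreg. Both KO-labelled libraries lie below both WT libraries, and the state pairs are close. It fell by 0.34 on the log2 scale (SE 0.0657, adjusted p = 0.000922 by edgeR), with log2 ratios of -0.35 in aTreg (-0.44 to -0.26) and -0.32 in rTreg (-0.42 to -0.23). Irf3 shares 2.56% of its exon bases with Bcl2l12 on the opposite strand. How reads in the shared bases were counted is unknown, since the sources used here give no strand setting for the counting.

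Irf7 (ENSMUSG00000025498, chromosome 7, 141262706 to 141266481, minus strand), the interferon-induced amplifier of interferon-alpha, had 115 and 128 CPM in KO-labelled aTreg and rTreg and 128 and 142 CPM in WT aTreg and rTreg. Its log2 ratios were -0.15 in aTreg (-0.23 to -0.07) and -0.14 in rTreg (-0.22 to -0.06), near equal in both states, and it did not pass (edgeR adjusted p = 0.0763). Under upper-quartile scaling it was called, at -0.19 (adjusted p = 0.0234). Per length the ratio of Irf3 to Irf7 was 0.856 in KO-labelled aTreg (0.803 to 0.913) and 0.756 in KO-labelled rTreg (0.708 to 0.807), against 0.983 in WT aTreg (0.930 to 1.04) and 0.857 in WT rTreg (0.812 to 0.905). Within each state the counting intervals of the genotypes do not overlap.

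Irf5 (ENSMUSG00000029771, chromosome 6, 29526625 to 29541871, plus strand) acts downstream of Toll-like receptors and MyD88. It had 431 and 279 counts in KO-labelled aTreg and rTreg and 425 and 229 counts in WT aTreg and rTreg, or 23.0 and 15.8 CPM against 20.6 and 10.9 CPM. Its log2 ratio of KO-labelled over WT was 0.15 in aTreg (-0.04 to 0.35) and 0.53 in rTreg (0.28 to 0.80), and it did not pass for genotype (edgeR adjusted p = 0.0725). With no filter on low counts it was called (0.34, adjusted p = 0.0461). Its exons share 14.1% of their bases with Tnpo3 on the opposite strand. Reads there may have been dropped or given to either gene, so its level is uncertain to that extent.

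Irf4 (ENSMUSG00000021356, chromosome 13, 30749226 to 30766976, plus strand) had a genotype ratio of opposite sign in the 2 states. It had 135 and 139 CPM in KO-labelled aTreg and rTreg, against 152 and 117 CPM in WT aTreg and rTreg. The KO-labelled values lie between the WT values. The log2 ratio of KO-labelled over WT was -0.17 in aTreg (-0.25 to -0.10) and 0.26 in rTreg (0.17 to 0.34), and the fitted genotype change was 0.04 (edgeR adjusted p = 0.745). The genotype ratio in aTreg minus that in rTreg was -0.43 (counting interval -0.54 to -0.32), and 9.62% of tested genes had a larger absolute difference. The same difference was -0.38 for Irf5 (-0.70 to -0.06), -0.26 for Irf1 (-0.31 to -0.20), -0.22 for Irf8 (-0.44 to -0.0045) and -0.17 for Irf2 (-0.29 to -0.04). For Irf3, Irf7 and Irf9 its interval held 0. With 1 library per group these differences between states have no test beyond counting error. Per length the ratio of Irf8 to Irf4, which encode closely related factors, was 0.339 in KO-labelled aTreg (0.316 to 0.363) and 0.278 in KO-labelled rTreg (0.258 to 0.299). It was 0.128 in WT aTreg (0.117 to 0.140) and 0.122 in WT rTreg (0.109 to 0.135).

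Between states, Irf5 and Irf8 were higher and Irf1 lower in aTreg than in rTreg in both genotypes. The same additive test called these 3 members for state, 2 higher and 1 lower, where it called 8% of all tested genes higher and 5.5% lower, 13.5% in all. Irf5 rose by 0.72 on the log2 scale (SE 0.144, adjusted p = 0.00449 by edgeR), with ratios of 0.53 in the KO-labelled pair (0.32 to 0.76) and 0.91 in the WT pair (0.68 to 1.16). Irf8 rose by 0.34 (SE 0.0953, adjusted p = 0.0299 by edgeR), with ratios of 0.24 and 0.46 in the KO-labelled and WT pairs. Irf1 fell by 0.27 (SE 0.0762, edgeR adjusted p = 0.0317), with ratios of -0.40 in the KO-labelled pair and -0.14 in the WT pair. These 3 calls were lost with DESeq2 on the same terms, which called 4.37% of all tested genes, at adjusted p of 0.0647 for Irf5, 0.368 for Irf8 and 0.100 for Irf1. Irf4 was at 0.39 in the WT pair (0.31 to 0.46) and -0.04 in the KO-labelled pair (-0.12 to 0.04), and was not called (edgeR adjusted p = 0.236). Irf7 and Irf9 had ratios between -0.16 and -0.13 in both pairs and did not pass (edgeR adjusted p = 0.158 and 0.163). No member was 2-fold apart between states, where 1.08% of tested genes were in the KO-labelled pair (0.95% higher and 0.134% lower in aTreg) and 2.59% in the WT pair (1.87% higher and 0.723% lower). The median over the 8 members was -0.09 in the KO-labelled pair and 0.01 in the WT pair, against medians of all tested genes of 0.0037 and 0.00038. For genotype it was 0.17 in aTreg and 0.31 in rTreg, against 0.0015 and 0.0076 over all tested genes.

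Irf8 and Irf5 were the members whose log2 CPM spanned at least 1 unit over the 4 libraries (1.69 and 1.07), and the genes of most similar pattern were sought among 9092 tested genes by the root mean square distance of centred log2 CPM. The nearest to Irf8 were S100a11, a calcium-binding protein (distance 0.0654), Car5b, a mitochondrial carbonic anhydrase (0.0668), and Neb, which encodes the muscle protein nebulin (0.0692). S100a11 had 226 and 183 CPM in KO-labelled aTreg and rTreg and 87.8 and 71.7 CPM in WT aTreg and rTreg. The nearest to Irf5 were Hspa2, a chaperone (0.0460), Tnfrsf1b, which encodes the TNF receptor TNFR2 (0.0555), and Cyfip1, a regulator of actin assembly (0.0608). Tnfrsf1b had 425 and 286 CPM in KO-labelled aTreg and rTreg and 413 and 208 CPM in WT aTreg and rTreg. With 4 libraries many genes share any pattern, so these distances are descriptions.

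Of the signals upstream of the family, interferon-gamma mRNA was higher in the KO-labelled libraries. Ifng was the single one of 15 interferon ligand genes to pass the level minimum, with 542 and 228 counts in KO-labelled aTreg and rTreg and 141 and 69 counts in WT aTreg and rTreg. The other ligand genes with a row, Ifna2 and Ifnk, had at most 1 count in a library. Ifng rose by 2.03 on the log2 scale (SE 0.168, adjusted p = 8.72e-07 by edgeR). Of 17 tested receptor and JAK-STAT genes, 5 rose and 6 fell, where the test called 24.5% of all tested genes higher and 22.9% lower. Their median log2 ratios were -0.09 in aTreg and 0.0009 in rTreg. Stat2, the partner of IRF9, rose by 0.47 and the receptor chain Ifngr1 by 0.60 on the fitted log2 scale. The second chain Ifngr2 fell by 0.50, and Usp18, a brake on the type I receptor, fell by 0.81.

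Of 21 tested sensor and kinase genes upstream of IRF3, IRF5 and IRF7, 7 rose and 4 fell, 52.4% against the background of 47.3%. The nucleic acid sensors Zbp1 (0.85) and Cgas (0.93) and the adaptors Ticam1 (0.55) and Myd88 (0.53) rose. The X-linked Tlr7 fell by 0.92, with 9.49 and 15.7 CPM in KO-labelled aTreg and rTreg and 18.01 and 29.5 CPM in WT aTreg and rTreg. The other genes of this list that were called lower were Ikbkb (-0.40), Ikbke (-0.29) and Traf6 (-0.26). With DESeq2 the call of Traf6 was lost (adjusted p = 0.0798). The IRF3 kinase gene Tbk1 had a fitted log2 change of 0.0049 and was not called. Of 10 tested partners and corepressors, 2 rose and 6 fell, against 24.5% and 22.9% of all tested genes. Their median ratios were -0.43 in aTreg and -0.32 in rTreg. Batf, the partner of IRF4, rose by 0.80, at 114 and 80.3 CPM in KO-labelled aTreg and rTreg and 63.9 and 47.3 CPM in WT aTreg and rTreg. Junb fell by 0.72 and Jund by 0.59. Of the IRF2-binding corepressors, Irf2bpl fell by 0.66, Irf2bp2 by 0.40 and Irf2bp1 by 0.34. The calls of Irf2bp1 and Jund were lost with DESeq2 (adjusted p = 0.0985 and 0.106) and with the single edgeR term (0.0644 and 0.143). Batf and Junb kept their calls with DESeq2 and lost them with the single edgeR term (adjusted p = 0.0647 and 0.0883).

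**Figure D4:**
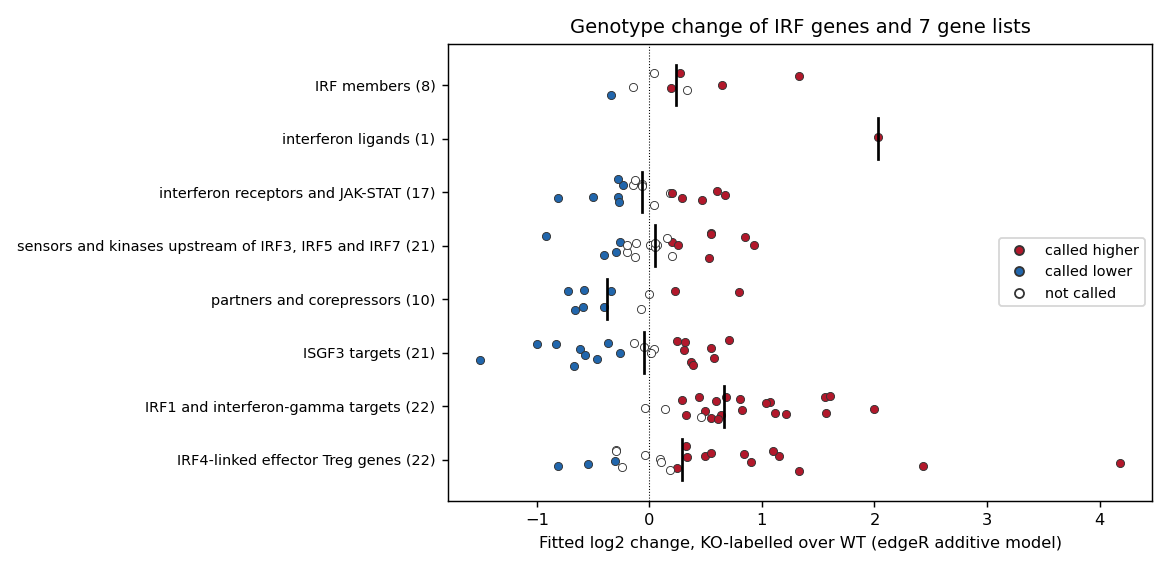
Fitted log2 change of KO-labelled over WT (horizontal axis) for the 8 IRF genes and the tested genes of 7 lists, 1 point per gene, filled where edgeR's additive test called it; black bars are medians and numbers in brackets count genes. Of 22 IRF1 and interferon-gamma targets, 19 points are called higher and none lower, while the 21 ISGF3 targets have 8 called higher and 9 lower. The same test called 24.5% of all tested genes higher and 22.9% lower.

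The lists of genes linked to the members, chosen with earlier results of these data known, differed in direction. Of 22 tested IRF1 and interferon-gamma targets, 19 rose and none fell, where the test called 24.5% of all tested genes higher and 22.9% lower. Their median log2 ratios were 0.57 in aTreg and 0.80 in rTreg. Iigp1, an immunity-related GTPase, had 201 and 295 CPM in KO-labelled aTreg and rTreg and 58.9 and 64.0 CPM in WT aTreg and rTreg, and Gbp3 (1.60), Casp1 (1.57) and Gbp2 (1.56) followed in size of fitted log2 change. Of 21 tested ISGF3 targets, 8 rose and 9 fell, against the same 24.5% and 22.9% of all tested genes. Their medians were -0.08 in aTreg and 0.09 in rTreg. Oasl1 fell by 1.504, Rsad2 by 0.99 and Oas2 by 0.83, while Rtp4 rose by 0.71. For state, 10 of these 21 fell in aTreg and none rose, where the test called 13.5% of all genes, but DESeq2 called 2 of them lower and state as the single edgeR term 0. Of 22 IRF4-linked effector Treg genes, 12 rose and 3 fell with genotype, against 47.3% of all tested genes called. For state, 19 of them rose and none fell in aTreg relative to rTreg, against 13.5%. DESeq2 called 14 of them higher for state, and state as the single edgeR term, which called 0 of all 9680 tested genes, called 0. Effector genes help to set activated Treg cells apart from resting ones, so these state counts cannot be read as a response to IRF4. Irf4 itself was not called for state. Prdm1, the effector regulator Blimp-1, had 68.4 and 44.0 CPM in KO-labelled aTreg and rTreg and 38.7 and 14.9 CPM in WT aTreg and rTreg. Gzmb (4.19), Cxcr3 (2.43) and Klrg1 (1.33) had the largest fitted genotype changes of that list. With genotype as the single edgeR term, 2 IRF4-linked genes were called higher and 1 lower, and 4 ISGF3 targets higher and 1 lower. That setting called 16.9% of all tested genes.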

How the data were processed

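Messenger RNA of 4 libraries, 1 per group, was measured by sequencing after TRIzol extraction and SMARTer library preparation, as the labels' protocols state. The submitters' processing notes name HISAT2 2.2.1, featureCounts 2.0.1 and the build GRCm38. The authors deposited raw read counts per gene, all of them whole numbers. Their other deposited file has variance-stabilised values on a log2-like scale and the authors' log2 fold changes with errors, where positive means higher in WT, with their p-values. That table's mean of scaled counts is a signal and its test statistic a score, per the file headers; neither was used.

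Genes averaging 5 CPM or more over the libraries (9680 of 19044, 99.3% of counts) were tested with edgeR 4.0.16 in R 4.3.3: TMM scaling, quasi-likelihood test, state and genotype as additive terms, 1 residual degree of freedom, a prior weight of 12.1 degrees of freedom, Benjamini-Hochberg adjustment over all tested genes, threshold 0.05. The prior shrinks a gene's own error strongly. Each SE is the absolute fitted log2 change divided by the square root of the test's F statistic. It is not a spread between mice. Log2 ratios use a prior count of 2. Intervals at 95% are exact binomial ones given the 2 libraries' summed count, or for differences of ratios normal intervals from the counts, and cover counting error only. A count of 0 allows up to 3 counts, 0.143 to 0.170 CPM. The script was tested on simulated data. TPM used exon lengths of GENCODE vM21 for 18441 genes, and promoters are RefSeq's, matched by symbol for all 8 members. Alternatives were DESeq2 1.42.0, other scalings, a single term, no filter and another prior count.

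The members, 7 gene lists and naming rule were chosen with earlier results of these data known. The rule named the members, Stat2, Batf, Spi1 and Prdm1, the 4 tested genes per list with the largest absolute mean genotype ratio, and the 3 genes nearest in pattern to members spanning at least 1 log2 unit. Irf2bp1, Irf2bp2, Tbk1, Myd88, Ikbkb, Ikbke, Traf6, Ifna2 and Ifnk were named after their values were seen. Socs1 stands in 2 lists. Some genes that the rule or the marker lists name are not reported here.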

Additional observations from a re-analysis of the deposited data

Results flagged for a closer look

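Irf4 was the member whose genotype ratio had opposite signs in the 2 states, with both counting intervals apart from 0. KO-labelled over WT, its log2 ratio was -0.17 in aTreg and 0.26 in rTreg, a difference of -0.43. With 1 library per group this difference was not tested beyond counting error, and 9.62% of tested genes had a larger absolute one.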

How the results depend on the processing

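No paired analysis was possible because each group has 1 library and so no replicate numbers to pair; the additive terms already set genotypes against each other within a state. With 1 library a group, none could be left out of the additive fit, which would keep no residual freedom. For genotype, 5 members were called; DESeq2 with the same terms called 3 and genotype as the single term 3 (Irf1, Irf3 and Irf8 in both), where these settings called 26.1% and 16.9% of all tested genes. For state, 3 members were called, against 0 with DESeq2 (3 at an unadjusted p under 0.05) and 0 with state as the single edgeR term (1 at an unadjusted p under 0.05), a setting that called 0 of all 9680 tested genes and so says nothing about the family. The log2 change of Irf8 for genotype ran from 1.29 to 1.35 over all settings, with adjusted p up to 0.0204, and that of Irf1 from 0.60 to 0.66, with adjusted p up to 0.0436. Irf4, not called in any setting, turned to -0.0082 for genotype under upper-quartile scaling. On the authors' variance-stabilised scale, which shrinks differences of low genes, 0 members were 2-fold apart for genotype in aTreg and 0 in rTreg, against 1 in each. With the longest transcript as length, Irf3 ranked 2, Irf9 3, Irf7 4, Irf8 7 and Irf5 8. With genotype as the single term, counts were 0 higher for interferon ligands, 2 higher and 1 lower for receptors and JAK-STAT, 0 lower for sensors, 0 higher and 3 lower for partners, 4 higher and 1 lower for ISGF3 targets, and 2 higher and 1 lower for IRF4-linked genes. Upper-quartile scaling left 1 higher partner. Chosen after seeing the data, DESeq2 on the lists called 3 receptors higher, 1 partner higher, and 4 ISGF3 targets higher and 5 lower for genotype. For state it called 2 ISGF3 targets lower (10 as reported), and the single term called 0 of these and 0 IRF4-linked genes higher (19 as reported). In the single-term setting the difference between states is part of the error. Under the scaling and prior count alternatives the members' log2 ratios stayed within their counting intervals, except that of Irf1 in rTreg, which was 0.72 under upper-quartile scaling.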
